A study of Mus musculus with 92 samples.

Results

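HFPO-DA, the dimer acid of hexafluoropropylene oxide, is a fluorinated ether acid that serves as a processing aid for fluoropolymers. The livers described here came from 5 female mice that were given 0.5 mg/kg HFPO-DA by gavage every day for 18 months. They were compared with 4 of the 5 female mice that were dosed at 0 mg/kg over the same 18 months. The 9 libraries, out of 92 in the series, were chosen by sex, duration and dose. All mice were wild-type CD-1, an outbred stock, so animals of a group differ in genetic background. Each library carries its own number as its name. The labels state no litter, cage or batch, so p-values below set a difference between groups against the spread between all libraries of a fit. The sources used here do not give the age of the mice at the start. In the fit these groups were joined by the 18-month females dosed at 0.05, 0.1 and 5 mg/kg, with 4, 5 and 5 animals. The same dose was also compared with its controls in 9-month females (10 libraries) and in 18-month males (10 libraries).

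RNA was measured in scraped sections of formalin-fixed, paraffin-embedded liver with TempO-Seq. In this assay a pair of oligonucleotides anneals side by side on each target transcript and is ligated, amplified and counted. A value is therefore a count of ligated probe pairs. Counts of probes for the same gene symbol were summed and are given as CPM, the count relative to the normalised size of its library. The 9 libraries held 11083295 to 17245725 counts and 12397 to 13985 detected genes. The control that was left out, replicate 3, held 403108 counts and 10027 detected genes, against at least 4443349 counts in every other library of the series. Summed CPM of 4 Y-linked genes was between 0 and 0.702 in the 9 livers, as labelled for females. Hepatocyte markers summed to 47251 to 114697 CPM in the controls and 50682 to 154619 CPM at 0.5 mg/kg, so the labelled tissue was present in each library. Values per animal are listed below for control replicates 1, 2, 4 and 5 and for 0.5 mg/kg replicates 1 to 5, in this order. These numbers only name the animals and pair none of them.

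PPAR-alpha is a nuclear receptor of hepatocytes that fatty acids and some fluorinated acids activate. It pairs with the retinoid X receptor and binds DNA at direct repeats spaced by a single base, near genes for fatty acid transport, peroxisomal and mitochondrial beta-oxidation and microsomal omega-oxidation. In rodents, sustained activation enlarges the liver, multiplies peroxisomes and can be followed by hepatocyte proliferation and tumours. The question asked of these livers was whether, after 18 months, 0.5 mg/kg per day left a measurable change in liver RNA of females.

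No gene passed the test at 0.5 mg/kg. Of 12370 genes tested with edgeR's quasi-likelihood test, 0 (0%) had a Benjamini-Hochberg adjusted p under 0.05, and the smallest adjusted p was 0.132. At an unadjusted p under 0.05 there were 376 genes, 212 higher (1.71%) and 164 lower (1.33%) at 0.5 mg/kg. Without any difference between groups about 1 gene in 20 would reach that p, and these were fewer. The same fit gave 706 genes at 0.05 mg/kg and 1025 at 0.1 mg/kg against the same controls. DESeq2 on the same libraries called 4 genes (0.0323%) and had 467 genes at an unadjusted p under 0.05. All 4 were higher at 0.5 mg/kg, and Casc4, Cyp4a14 and Gabpb2 were among them. With the low-total control kept, edgeR again called 0 genes. In a fit of only these groups it called 0 of 11429 genes, and 202 were at an unadjusted p under 0.05. The median log2 fold change of all genes tested was 0.0044, and 50.6% of them were above 0.

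**Figure D1:**
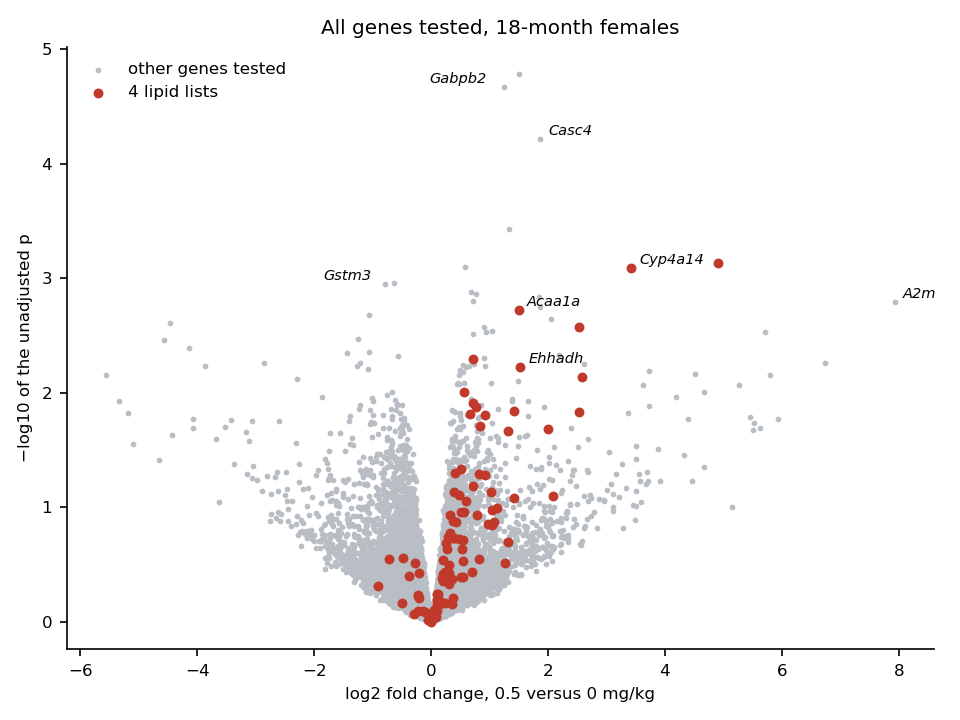
Each point is 1 of the 12370 genes tested, with its log2 fold change at 0.5 against 0 mg/kg on the x axis and the −log10 of its unadjusted edgeR p on the y axis. Genes of the 4 lipid lists (red) lie mostly right of 0, with 80 of 98 above it, and none passed the adjusted threshold.

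Most lipid oxidation genes nevertheless had a fold change above 0 at 0.5 mg/kg, and in a minority of them at least 4 of the 5 dosed livers lay above all controls. Averaged over the oxidation genes, dosed replicates 1 to 3 lay above all controls and replicates 4 and 5 did not. The 4 lists on peroxisomal oxidation, mitochondrial oxidation, omega-oxidation and lipid uptake and storage held 103 genes, of which 98 passed the low-count filter. Of these, 80 (81.6%) had a log2 fold change above 0, beside 50.6% of all genes tested, and their median was 0.37. The oxidation lists also shifted together within single control livers, so their genes are not independent counts. At an unadjusted p under 0.05, 19 of the 98 were higher and 0 were lower. In 13 of them at least 4 of the 5 dosed livers lay above all 4 controls, a pattern seen in 2.55% of all genes tested. No member had all 5 dosed livers above all controls, which 0.445% of all genes did. Without 0.5 mg/kg replicates 4 and 5, 42 of 99 members were higher at an unadjusted p under 0.05. Over all genes the count at that p, in either direction, went from 376 of 12370 to 774 of 12545. Those livers had the lowest oxidation levels of the dosed group, 0.10 and -0.27. Leaving them out therefore favours a higher count, and the 42 members are no added support. Without control replicate 1, 35 members were higher and 618 of 12659 genes were under that p. Without control replicate 4, 12 members were higher and 386 of 12685 genes were under it. Control replicates 1 and 4 had the highest and the lowest oxidation level of the controls, 0.37 and -0.46.

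Before the values, promoter sequence is shown for genes of these lists whose start region holds a likeness of the direct repeat. The motif searched was a pair of AGGTCA half-sites with 1 free base between them, on both strands, with up to 2 mismatches over the 12 bases of the half-sites. The windows searched ran from 250 bases before to 50 bases after each gene's start in RefSeq GRCm38.p6, and no other motif was searched. Of the 112 genes of the 4 lists and the fixed genes, 86 had a promoter in that table. A match was found for 11 of the 86 (12.8%), and for 4.4% of all 27018 symbols in the table. A match describes letters in the window and is no evidence of binding. Capitals mark the 13 bases of the match, read 5′ to 3′ on the gene's strand.
Acot12: taggacccTGACCTCTCACCTcctaagca
Slc25a20: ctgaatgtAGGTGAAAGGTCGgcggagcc
Fabp1: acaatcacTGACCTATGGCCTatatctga
Cd36: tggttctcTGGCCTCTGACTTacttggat
Mogat1: cagaattcAGGTAAAAAGTCAggctggtg
Plin2: agctttcaGGACCCCTGACCTaagtcaga
The 6 windows are shown because the levels of these genes are described below, and their log2 fold changes are all above 0. The other 5 genes with a match were Acot4, Creb3l3, Etfa, Cyp4f16 and Ucp3, named after their values were seen, with log2 fold changes of 0.7, 0.32, 0.05, -0.23 and -0.91. The Acot12 window lies at chr13:91741403-91741431 on the plus strand, with 1 mismatch and the match starting at position -110 from the gene's start. The Slc25a20 window lies at chr9:108662134-108662162 on the plus strand, with 2 mismatches and the match starting at position 6 from the gene's start. The Fabp1 window lies at chr6:71199804-71199832 on the plus strand, with 1 mismatch and the match starting at position -67 from the gene's start. The Cd36 window lies at chr5:17835939-17835967 on the minus strand, with 2 mismatches and the match starting at position -63 from the gene's start. The Mogat1 window lies at chr1:78511001-78511029 on the plus strand, with 2 mismatches and the match starting at position -51 from the gene's start. The Plin2 window lies at chr4:86670264-86670292 on the minus strand, with 2 mismatches and the match starting at position -225 from the gene's start.

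Omega-oxidation hydroxylates the far end of a fatty acid in the microsomes, and the Cyp4a enzymes that do so are among the best known PPAR-alpha targets in mouse liver. Cyp4a14 was measured at 39.1, 20, 5.08 and 23.8 CPM in the controls and 260, 201, 461, 237 and 22.9 CPM at 0.5 mg/kg. Replicates 1 to 4 were at least 5 times as high as every control, and replicate 5 lay within the control range. The log2 fold change was 3.42 ± 0.86 (SE), with an unadjusted p of 8.14e-04 and an adjusted p of 1 by edgeR. DESeq2 gave 3.43 with an adjusted p of 0.0109, so this call depended on the tool. When replicate 5 was left out, DESeq2 gave 3.72 with an adjusted p of 9.42e-04. As replicate 5 was the dosed liver without a rise, this smaller p is no added support.

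Cyp4a10, the closely related hydroxylase, had 242, 116, 12.3 and 117 CPM in the controls and 1126, 508, 1548, 418 and 60.9 CPM at 0.5 mg/kg. Again 4 dosed livers lay above all controls and replicate 5 did not, and the log2 fold change was 2.59 ± 0.86 (SE, unadjusted p = 0.0073, adjusted p = 1 by edgeR). Cyp4a31 had 51.5, 79.2, 11.7 and 50.6 CPM in the controls and 336, 176, 626, 189 and 70 CPM at 0.5 mg/kg. Replicate 5 was again the dosed liver inside the control range, and the log2 fold change was 2.53 ± 0.74 (SE, unadjusted p = 0.00268, adjusted p = 1 by edgeR). Cyp4a genes are near copies of each other, as are Acot1 and Acot2, and the sources used here do not say how far their probes tell them apart.

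Acyl-CoA thioesterases split activated fatty acids from coenzyme A. Acot1, the cytosolic form, had 64.6, 8.63, 5.08 and 35.3 CPM in the controls and 288, 134, 308, 55.5 and 36 CPM at 0.5 mg/kg, so 3 dosed livers exceeded all controls. Its log2 fold change was 2.53 ± 0.94 (SE, unadjusted p = 0.0146, adjusted p = 1 by edgeR). Acot12 had 193, 110, 136 and 136 CPM in the controls and 241, 251, 229, 222 and 124 CPM at 0.5 mg/kg. Its dosed replicates 1 to 4 stood close together above the controls, with a log2 fold change of 0.57 ± 0.20 (SE), and this gene was chosen after its values were seen. Acot2, the mitochondrial form, had 14, 8.82, 20.3, 2.62 and 5.65 CPM at 0.5 mg/kg against 2.58 to 6.85 CPM in the controls, and the groups overlapped. Of the 16 tested genes of this list, 10 had a fold change above 0, with a median log2 fold change of 0.56, and 5 were higher at an unadjusted p under 0.05.

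Peroxisomal beta-oxidation shortens very long fatty acids in a cycle of steps. Ehhadh, the bifunctional enzyme, had 631, 578, 311 and 619 CPM in the controls and 1688, 2224, 2531, 634 and 572 CPM at 0.5 mg/kg. Replicates 1 to 3 were well above the controls, while replicate 4 was just past the highest control and replicate 5 was among them. The log2 fold change was 1.52 ± 0.50 (SE, unadjusted p = 0.00598, adjusted p = 1 by edgeR).

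The thiolase Acaa1a had 427, 467, 233 and 456 CPM in the controls and 896, 1257, 1960, 1080 and 396 CPM at 0.5 mg/kg. Dosed replicates 1 to 4 lay at 896 CPM or more and all controls at 467 CPM or less, and the fitted level was 2.83 times that of the controls, with an SE of 0.43 on the log2 scale (unadjusted p = 0.00189, adjusted p = 1 by edgeR). Slc27a2, an acyl-CoA synthetase of very long chains, had 2611, 2134, 3796, 1178 and 1173 CPM at 0.5 mg/kg, against 848 to 1665 CPM in the controls. The second thiolase Acaa1b and the peroxisome division factor Pex11a had log2 fold changes of 0.97 ± 0.63 and 1.02 ± 0.54 (SE), with overlapping groups. Over the list, 28 of 30 genes were tested, 21 were above 0, the median log2 fold change was 0.31, and 5 were higher at an unadjusted p under 0.05.

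**Figure D2:**
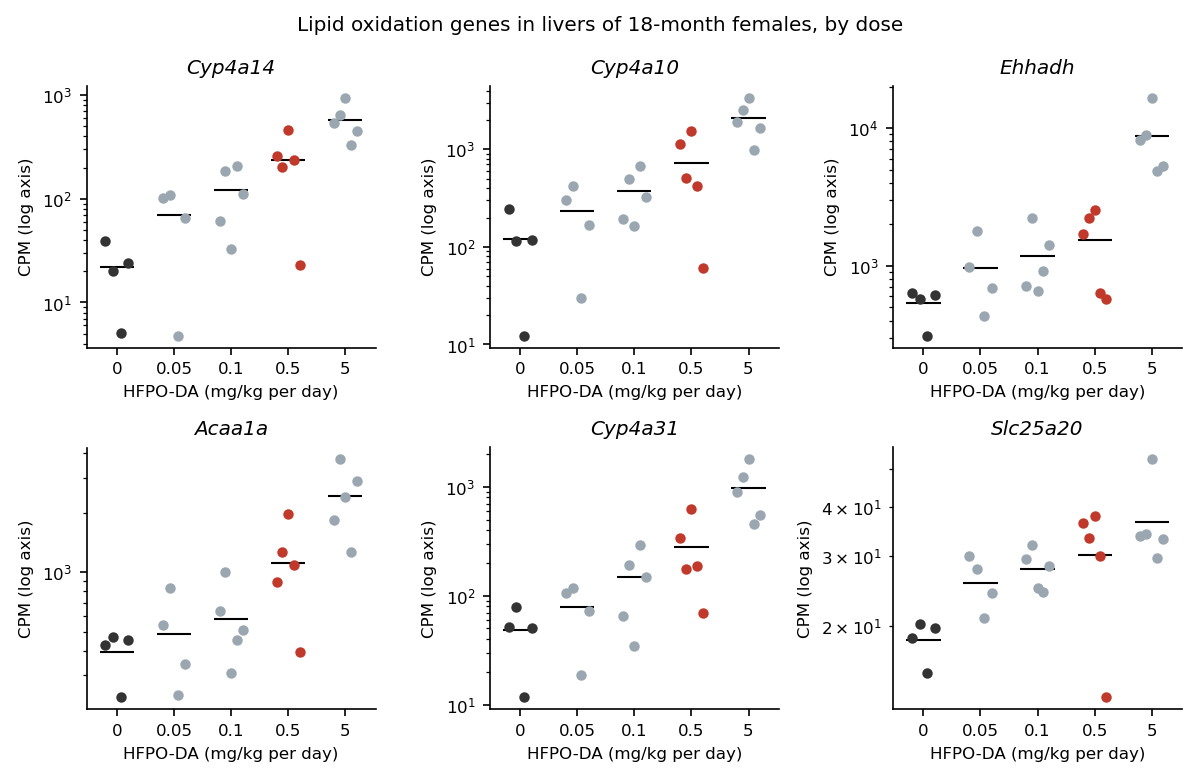
CPM on a log axis against the daily dose for 6 lipid oxidation genes in 18-month females, with 1 point per animal and a line at the mean of each group (n = 4, 4, 5, 5 and 5 in rising dose). At 0.5 mg/kg (red), 4 of 5 livers lie above all controls (black) in each of these genes and 1 does not.

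Mitochondrial beta-oxidation takes in acyl groups as carnitine esters. Slc25a20, the carnitine-acylcarnitine carrier of the inner membrane, had 18.6, 20.2, 15.2 and 19.8 CPM in the controls and 36.5, 33.3, 37.9, 30 and 13.2 CPM at 0.5 mg/kg. Dosed replicates 1 to 4 were above every control and replicate 5 was the lowest of all 9 livers, and the log2 fold change was 0.71 ± 0.23 (SE, unadjusted p = 0.00513, adjusted p = 1 by edgeR). Acadm, the medium-chain dehydrogenase, had 924, 539, 444 and 650 CPM in the controls and 1224, 1411, 929, 898 and 614 CPM at 0.5 mg/kg. Eci1, an isomerase for unsaturated chains, had 128, 70.6, 55.6 and 94.1 CPM in the controls and 192, 199, 188, 80.2 and 85.5 CPM at 0.5 mg/kg. In both genes 3 dosed livers exceeded all controls, and the log2 fold changes were 0.67 ± 0.26 and 0.77 ± 0.29 (SE).

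Slc22a5, the plasma membrane carnitine transporter, had 1.24, 1.39, 1.14 and 1.34 CPM in the controls and 3.34, 3.89, 11.8, 5.97 and 0.694 CPM at 0.5 mg/kg, a fitted level 4.01 times that of the controls, and was chosen after its values were seen. Its replicates 1 to 4 were above all controls and replicate 5 was below them. Cpt1b, the muscle type carnitine palmitoyltransferase, had 2.19, 4.37, 3.94 and 2.99 CPM in the controls and 6.54, 7.66, 8.03, 0.341 and 7.24 CPM at 0.5 mg/kg, and the single dosed liver below the controls was replicate 4. Hadha, of the trifunctional protein, had a log2 fold change of 0.28 ± 0.23 (SE), and 1 dosed liver exceeded all controls. All 24 genes of the list were tested, 23 were above 0, the median log2 fold change was 0.41, and 5 were higher at an unadjusted p under 0.05.

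Among lipid uptake and storage genes, Plin2, the coat protein of lipid droplets, had 1301, 890, 552 and 833 CPM in the controls and 1195, 1367, 1872, 1057 and 1835 CPM at 0.5 mg/kg. Dosed replicates 2, 3 and 5 were above all controls, and the log2 fold change was 0.71 ± 0.26 (SE, unadjusted p = 0.0123, adjusted p = 1 by edgeR). Retsat, retinol saturase, had 232, 147, 83.7 and 169 CPM in the controls and 495, 275, 874, 322 and 134 CPM at 0.5 mg/kg, with a log2 fold change of 1.41 ± 0.53 (SE, unadjusted p = 0.0145). Slc27a1, a fatty acid transporter chosen after its values were seen, had 7.86, 9.43, 7.35 and 10.1 CPM in the controls and 48.6, 18.6, 19.3, 16.5 and 5.55 CPM at 0.5 mg/kg. In both genes replicates 1 to 4 were above all controls and replicate 5 was below the highest of them.

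Mogat1, a monoacylglycerol acyltransferase, was near the detection limit, with raw counts of 0, 2, 0 and 0 in the controls and 2, 19, 50, 2 and 11 at 0.5 mg/kg. Its fitted log2 fold change of 4.90 rests on 2 control counts in all and on 50 counts in dosed replicate 3. Cd36, the fatty acid translocase, had 86.8, 92.8, 83.4 and 40.3 CPM in the controls and 170, 91.3, 190, 100 and 120 CPM at 0.5 mg/kg, and replicate 2 was the dosed liver that did not exceed all controls. Fabp1, the liver fatty acid binding protein, spread from 529 to 4974 CPM among controls and from 1949 to 5206 CPM at 0.5 mg/kg. Angptl4, an inhibitor of lipoprotein lipase, and Vnn1, the pantetheinase vanin 1, had log2 fold changes of 1.31 ± 0.99 and 2.08 ± 1.13 (SE), with 3 dosed livers above all controls in each. Pdk4, a kinase that holds back glucose oxidation, and Fgf21, the fasting hormone, had 0.36 ± 0.94 and 1.08 ± 0.70 (SE), with overlapping groups. In this list 30 of 32 genes were tested, 26 were above 0, the median log2 fold change was 0.37, and 4 were higher at an unadjusted p under 0.05. Ppara itself was not higher, with 85.6, 133, 155 and 129 CPM in the controls and 135, 117, 97.1, 51.9 and 72.4 CPM at 0.5 mg/kg and a log2 fold change of -0.41 ± 0.29 (SE, unadjusted p = 0.163).

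The spread between single livers was summarised as an oxidation level. For each of 68 oxidation genes, the average control value of log2(CPM + 1) was subtracted, and the differences were averaged per animal. The controls had 0.37, -0.0048, -0.46 and 0.091. At 0.5 mg/kg the levels were 0.88, 0.64, 0.88, 0.10 and -0.27, so replicates 1 to 3 were above all controls and replicates 4 and 5 were within their range. The group mean was 0.44 ± 0.51 (SD, n = 5) at 0.5 mg/kg, 0.27 ± 0.35 (SD, n = 4) at 0.05 mg/kg, 0.44 ± 0.15 (SD, n = 5) at 0.1 mg/kg and 1.13 ± 0.29 (SD, n = 5) at 5 mg/kg, and these levels share 1 set of controls. The spread at 0.5 mg/kg was the widest of the 5 dose groups. The control mean is 0 by construction, with an SD of 0.34 (n = 4).

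A control and a dosed liver stood apart on inflammation genes. Acute phase proteins are made by hepatocytes during inflammation, and serum amyloid A1, Saa1, had 193, 1732, 35429 and 1129 CPM in the controls and 85.6, 289, 558, 661 and 57289 CPM at 0.5 mg/kg. Control replicate 4 and dosed replicate 5 therefore stood more than 20 times above every other liver of their groups, and Saa1 was chosen after its values were seen. Lcn2, lipocalin 2, chosen in the same way, had 25.5, 1617, 2203 and 140 CPM in the controls and 9.58, 28.2, 51.1, 533 and 9842 CPM at 0.5 mg/kg. A2m, alpha-2-macroglobulin, had 0.768, 0.397, 1.36 and 0 CPM in the controls and 0.228, 1.1, 1.2, 1.82 and 798 CPM at 0.5 mg/kg, so its log2 fold change of 7.93 came from 1 liver. Il1rn, the interleukin 1 receptor antagonist, had 4.84, 10.8, 4.55 and 7.55 CPM in the controls and 8.82, 14.6, 9.63, 34.4 and 91 CPM at 0.5 mg/kg, with the highest values in dosed replicates 4 and 5. The median of the 28 acute phase genes, relative to the control mean, was 2.35 in dosed replicate 5 and 1.44 in control replicate 4, and between -1.11 and 0.20 in the other 7 livers. These were also the livers with the lowest oxidation level of their group, and the part of inflammation in that level was not tested. Without both livers, 79 of 99 lipid genes were above 0, 17 were higher at an unadjusted p under 0.05, and the median log2 fold change was 0.33. In the same fit 525 of all 12659 genes were under that p, in either direction.

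Dosed replicate 5 was also the lowest for genes that female livers express more than male livers. Their median over 31 genes was -1.89 in that liver and between -0.41 and 0.79 in the other 8. Sult1e1, the estrogen sulfotransferase, had 16.2, 16.2, 1945 and 335 CPM in the controls and 5.85, 57, 190, 17.2 and 82.7 CPM at 0.5 mg/kg, so control replicates 4 and 5 carried its log2 fold change of -3.04 ± 1.40 (SE). Trim24, a regulator of nuclear receptors, had 88.7, 53.7, 37.7 and 88.8 CPM in the controls and 66.3, 60.1, 30.6, 27.5 and 21.5 CPM at 0.5 mg/kg, with overlapping groups. Rtn4, a reticulon, had 11, 17.7, 16.4 and 17.4 CPM in the controls and 20.9, 24.3, 22.8, 25 and 15.8 CPM at 0.5 mg/kg, and replicates 1 to 4 were above all controls. Over the list 31 genes were tested, 12 were above 0 and the median log2 fold change was -0.16. Among 20 genes of male bias, 13 were above 0 with a median of 0.20. Elovl3, a fatty acid elongase of that list, had 8.15, 25, 12.6 and 12.5 CPM in the controls and 23.3, 15.1, 145, 12.7 and 38.5 CPM at 0.5 mg/kg, highest in replicate 3. Hsd3b2, a steroid dehydrogenase, had 22.5, 16.4, 10.7 and 35.8 CPM in the controls and 27.4, 7.83, 3.71, 3.64 and 6.35 CPM at 0.5 mg/kg, and replicates 2 to 5 were below all controls.

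**Figure D3:**
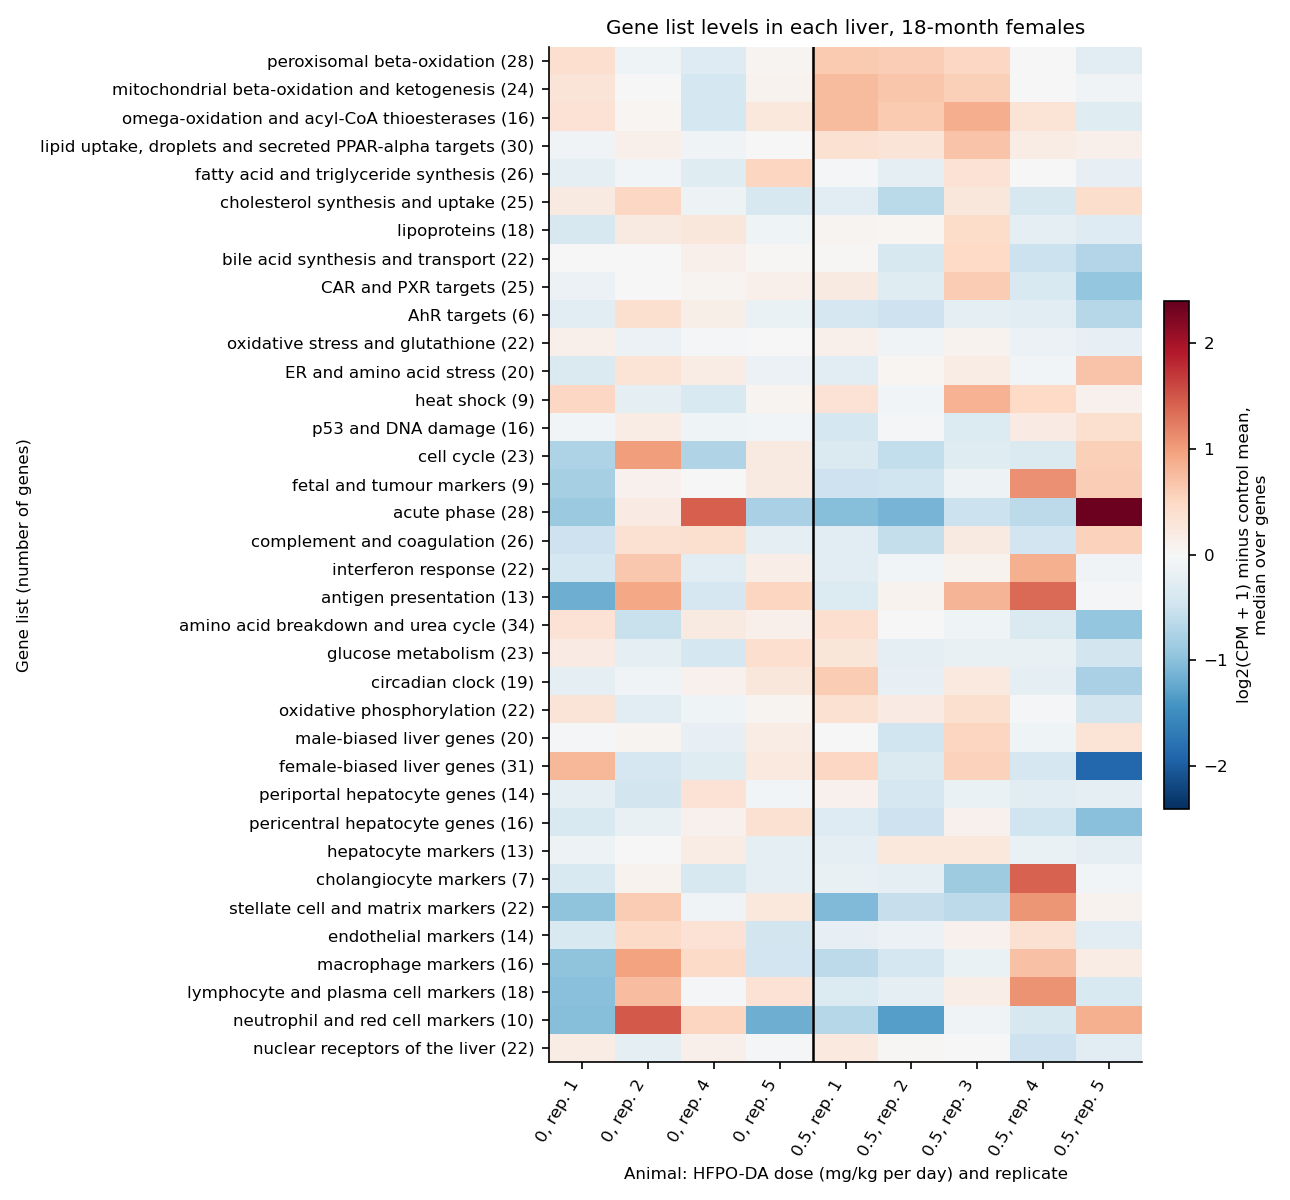
Each cell gives the median over a list's genes of the difference from the average control on the log2(CPM + 1) scale, for 1 list (rows, number of genes in brackets) in 1 liver (columns, controls left of the line). The lipid rows at the top are high in dosed replicates 1 to 3, the acute phase row is high in control replicate 4 and dosed replicate 5, and the cholangiocyte, stellate and lymphocyte rows are high in dosed replicate 4.

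Markers of lymphocytes and of stellate cells were highest in dosed replicate 4. Summed lymphocyte and plasma cell markers were 179 to 1032 CPM in the controls and 281 to 2778 CPM at 0.5 mg/kg, with the highest value in replicate 4. Stellate cell and matrix markers summed to 425 to 1347 CPM and 368 to 1873 CPM, again highest in replicate 4. Igkc, an immunoglobulin light chain chosen after its values were seen, had 10.6, 495, 401 and 526 CPM in the controls and 63.2, 31, 79.2, 2054 and 163 CPM at 0.5 mg/kg. Krt19, a keratin of bile duct cells, had 1, 1.69, 0.606 and 10.2 CPM in the controls and 1.82, 4.81, 0.301, 49.8 and 6.84 CPM at 0.5 mg/kg. Both genes peaked in replicate 4. Gpx2, a glutathione peroxidase of epithelia, had raw counts of 0, 0, 0 and 4 in the controls and 4, 9, 7, 343 and 18 at 0.5 mg/kg. In bulk tissue, fewer hepatocytes and less RNA per hepatocyte cannot be told apart, and the part of these cells in the lipid values of replicate 4 was not tested. Macrophage markers summed to 326 to 1399 CPM in the controls and 501 to 1256 CPM at 0.5 mg/kg, and endothelial markers to 545 to 1037 CPM and 628 to 942 CPM. Cholangiocyte markers summed to 80.6 to 459 CPM and 71.9 to 589 CPM, and neutrophil and red cell markers to 9.67 to 174 CPM and 12.1 to 604 CPM, both sums highest in dosed replicate 5, while the highest macrophage and endothelial sums were in controls. By the median over the 7 tested cholangiocyte markers, relative to the control mean, dosed replicate 4 was highest at 1.41, with -0.059 in replicate 5. By the same median over the 10 tested neutrophil and red cell markers, control replicate 2 was highest at 1.48, with 0.86 in dosed replicate 5. Of 14 adipocyte and pancreas markers, Adipoq, Lep and Prss2 were at 0 in all 9 livers, and the sum was at most 5.86 CPM. No marker list had a median that separated the groups.

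**Figure D4:**
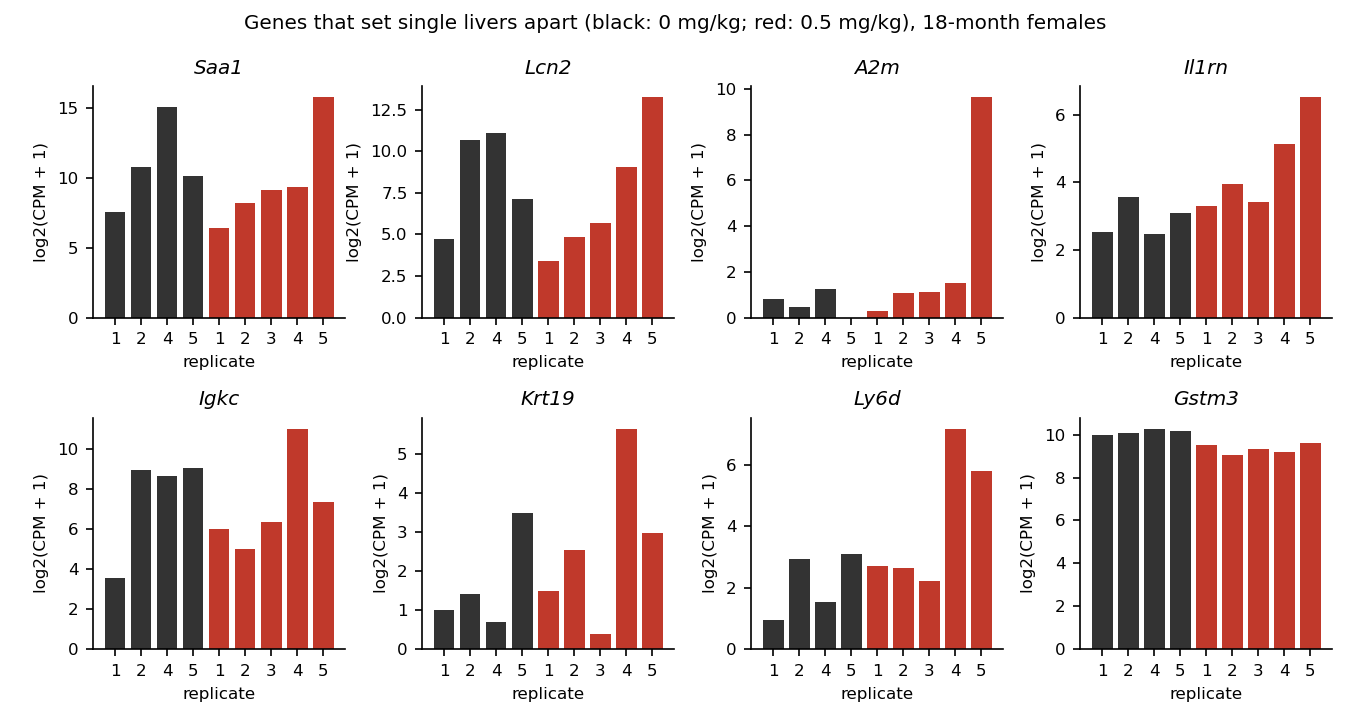
Bars give log2(CPM + 1) of 8 genes in each of the 9 livers, with the 4 controls in black and the 5 livers at 0.5 mg/kg in red. Saa1, Lcn2 and A2m peak in dosed replicate 5, Igkc and Krt19 in dosed replicate 4, and Gstm3 is lower in all 5 dosed livers than in all 4 controls.

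Within the marker lists, Krt23, a keratin of ductular and stressed hepatocytes, had 1.48, 1.19, 0.455 and 0.629 CPM in the controls and 7.98, 11.1, 4.32, 4.78 and 0.595 CPM at 0.5 mg/kg, and replicates 1 to 4 exceeded all controls with a log2 fold change of 2.61 ± 0.84 (SE, unadjusted p = 0.00564, adjusted p = 1 by edgeR). Pdgfrb, the receptor that marks stellate cells and pericytes, had 1.77, 6.25, 2.05 and 1.81 CPM in the controls and 0.76, 1.51, 1.71, 1.65 and 1.29 CPM at 0.5 mg/kg, so all 5 dosed livers were below all controls at low counts. Ighm, the immunoglobulin heavy chain mu, had -2.31 ± 0.97 (SE), and Cd3g, of the T cell receptor complex, had 2.01 ± 0.90 (SE) as log2 fold change, both with overlapping groups.

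Among genes of foreign compound metabolism, 2 glutathione transferases were lower in every dosed liver. The glutathione transferase Gstm3 had 1010, 1069, 1248 and 1167 CPM in the controls and 741, 533, 635, 580 and 776 CPM at 0.5 mg/kg, and all 5 dosed livers were below all 4 controls, as in 0.372% of all genes tested. Its log2 fold change was -0.78 ± 0.21 (SE, unadjusted p = 0.00112, adjusted p = 1 by edgeR). Low values of Gstm3 were not particular to this dose. It had 816, 677, 546 and 1030 CPM at 0.05 mg/kg and 795, 564, 824, 737 and 663 CPM at 0.1 mg/kg. Of these livers only the one at 1030 CPM was not below all controls, and the same 4 controls serve every dose. Gstm2 had 180, 105, 209 and 197 CPM in the controls and 69.6, 66.5, 65.1, 94.1 and 68.2 CPM at 0.5 mg/kg, also without overlap, with a log2 fold change of -1.25 ± 0.38 (SE, unadjusted p = 0.00337, adjusted p = 1 by edgeR). Slco1a4, a transporter of bile acids and drugs, had 15.1, 29, 20.7 and 13.2 CPM in the controls and 8.51, 12.4, 11.5, 7 and 2.08 CPM at 0.5 mg/kg, again without overlap, and a log2 fold change of -1.23 ± 0.46 (SE).

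Ugt1a6a, a glucuronosyltransferase under the aryl hydrocarbon receptor, had 178, 281, 282 and 168 CPM in the controls and 121, 89.7, 195, 127 and 105 CPM at 0.5 mg/kg, and 4 of 5 dosed livers were below all controls, as in 2.99% of all genes. The main drug-metabolising markers did not separate. Cyp2b10, the marker of the receptor CAR, had 260, 408, 131 and 227 CPM in the controls and 325, 145, 565, 135 and 21.2 CPM at 0.5 mg/kg. Cyp3a11, the marker of PXR, had -0.83 ± 0.71 and Cyp1a2 0.10 ± 0.44 as log2 fold change (SE), both with wide overlap. Cyp2c55 had -1.51 ± 0.83 (SE), with 1 high control, and Nqo1, a quinone reductase, had -0.85 ± 0.48 (SE). Of 25 CAR and PXR targets 9 were above 0, with a median log2 fold change of -0.11, and of 6 targets of the aryl hydrocarbon receptor 2 were above 0, with a median of -0.40.

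Among bile acid genes, Nr0b2, the corepressor SHP, had 2.78, 1.49, 2.05 and 1.18 CPM in the controls and 5.02, 9.05, 6.92, 0.114 and 5.45 CPM at 0.5 mg/kg, and replicates 1, 2, 3 and 5 exceeded all controls. Cyp7a1, the rate-limiting enzyme of bile acid synthesis, had 247, 144, 340 and 780 CPM in the controls and 338, 50.9, 352, 363 and 36.5 CPM at 0.5 mg/kg, low in dosed replicates 2 and 5. Akr1d1, a bile acid reductase, had -0.42 ± 0.23 (SE). Of 22 bile acid genes 8 were above 0, with a median log2 fold change of -0.16. Of 26 genes of fatty acid and triglyceride synthesis 12 were above 0, with a median of -0.032, and 0 reached an unadjusted p under 0.05. Scd1, the stearoyl-CoA desaturase, had 163, 253, 360 and 408 CPM in the controls and 190, 482, 847, 106 and 699 CPM at 0.5 mg/kg, and Agpat2 and Fads1, an acyltransferase and a desaturase, had 0.49 ± 0.25 and -0.35 ± 0.23 (SE). Of 25 cholesterol genes 10 were above 0, with a median of -0.11, and Tm7sf2, a sterol reductase, had 0.32 ± 0.21 (SE). Of 18 lipoprotein genes 8 were above 0, with a median of -0.048.

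Amino acid genes and genes with zonal expression had list medians below 0. Ass1, argininosuccinate synthase of the urea cycle, had 4155, 3523, 7196 and 5363 CPM in the controls and 4438, 2982, 3436, 2238 and 1887 CPM at 0.5 mg/kg, and replicates 2 to 5 were below all controls. Cps1, which starts the urea cycle, had 33.3, 40.6, 50.1 and 45.5 CPM in the controls and 37.3, 26.4, 37.8, 16.8 and 14.5 CPM at 0.5 mg/kg, lowest in replicates 4 and 5. The log2 fold changes were -0.76 ± 0.31 and -0.67 ± 0.29 (SE, unadjusted p = 0.0244 and 0.0278). Of 34 genes of amino acid breakdown and the urea cycle 9 were above 0, with a median of -0.20. Of 16 pericentral genes 3 were above 0, with a median of -0.35. Slc1a2, the glutamate transporter of cells around the central vein, had 229, 321, 376 and 451 CPM in the controls and 176, 172, 339, 174 and 166 CPM at 0.5 mg/kg, and replicate 3 was the only dosed liver within the control range. Lgr5, a Wnt target of the same zone, and Hsd17b13, a periportal lipid droplet protein, had -1.21 ± 0.58 and -0.81 ± 0.38 (SE). Of 14 periportal genes 2 were above 0, with a median of -0.14, and Ass1, Cps1 and Hsd17b13 were the 3 lower at an unadjusted p under 0.05. Pfkl, the liver phosphofructokinase, had 51, 47.2, 72.4 and 56.1 CPM in the controls and 76.3, 81.8, 62.4, 81.2 and 91.3 CPM at 0.5 mg/kg, and its log2 fold change was 0.47 ± 0.16 (SE, unadjusted p = 0.00695).

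Among stress genes, Hspb1, the small heat shock protein Hsp27, had 7.68, 3.57, 1.74 and 4.09 CPM in the controls and 8.51, 15.3, 27.2, 19.7 and 7.34 CPM at 0.5 mg/kg, and replicates 1 to 4 exceeded all controls, with a log2 fold change of 1.86 ± 0.53 (SE, unadjusted p = 0.00179, adjusted p = 1 by edgeR). Cdkn1a, the cell cycle inhibitor p21, had 0.768, 2.78, 1.89 and 1.18 CPM in the controls and 0.076, 9.57, 2.61, 8.65 and 17.1 CPM at 0.5 mg/kg, and Ly6d, a surface protein of the tumour and fetal list, had 0.945, 6.55, 1.89 and 7.47 CPM in the controls and 5.55, 5.28, 3.61, 144 and 55.2 CPM at 0.5 mg/kg. Both were highest in replicates 4 or 5. Mki67, the proliferation marker, had 1.06, 4.17, 0.455 and 1.18 CPM in the controls and 0.76, 0.696, 0.201, 0.853 and 3.47 CPM at 0.5 mg/kg, and Ccnd1, cyclin D1, had -0.35 ± 0.36 as log2 fold change (SE). Mcm3 and Pcna, of DNA replication, had -1.10 ± 0.66 and -0.54 ± 0.36 (SE), with the highest value of both in control replicate 2. Of 23 cell cycle genes 8 were above 0, with a median of -0.35, and 0 reached an unadjusted p under 0.05. Gadd45a, of DNA damage, and Ddit3, of endoplasmic reticulum stress, had -0.14 ± 0.49 and 0.86 ± 0.44 (SE). Of 16 p53 and DNA damage genes 8 were above 0, with a median of 0.0053.

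In the other lists, 17 of 22 interferon genes, 12 of 13 antigen presentation genes and 15 of 22 oxidative phosphorylation genes were above 0, beside 50.6% of all genes, and none of them reached an unadjusted p under 0.05. Dosed replicate 4, the liver with the highest lymphocyte marker sum, had the highest median of the interferon list, 0.85, and of the antigen presentation list, 1.36, and control replicate 1 had the lowest of both, -0.43 and -1.18. The part of those cells in these lists was not tested. Of the lists' members, Stat2, Oasl2 and H2-DMa had log2 fold changes of 0.51 ± 0.28, 0.79 ± 0.46 and 0.80 ± 0.62 (SE). Cry1, of the circadian clock, had 0.79 ± 0.47 (SE), and 9 of the 19 clock genes were above 0.

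Gabpb2 and Casc4 belong to none of the lists, and Casc4 was chosen after its values were seen. Casc4, a membrane protein, had 3.96, 4.07, 2.58 and 1.97 CPM in the controls and 7.22, 14.6, 8.13, 9.33 and 18.1 CPM at 0.5 mg/kg, without overlap. Its log2 fold change was 1.87 ± 0.38 (SE), with an adjusted p of 0.252 by edgeR, 1 by edgeR in a fit of only these groups, and 0.00648 by DESeq2. Gabpb2, a subunit of the transcription factor GABP, had 19.8, 22.2, 26.5 and 20.1 CPM in the controls and 18.9, 58.9, 57.3, 63.2 and 65.7 CPM at 0.5 mg/kg. Replicates 2 to 5 were at 57.3 CPM or more and replicate 1 was just below the controls, with a log2 fold change of 1.25 ± 0.24 (SE, unadjusted p = 2.13e-05, adjusted p = 0.132 by edgeR). Without replicate 1, the dosed liver that was not higher, edgeR called Gabpb2 at 1.47 with an adjusted p of 2.21e-05. With any other single liver of the 9 left out, the adjusted p was between 0.234 and 0.988 by edgeR. A fit of only these groups gave 1.26 with an unadjusted p of 0.00198 by edgeR and no call. Its means at 0.05, 0.1 and 5 mg/kg were 23.9 ± 2.63 (SD, n = 4), 26.4 ± 4.13 (SD, n = 5) and 48.9 ± 4.05 CPM (SD, n = 5).

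Against the next dose, 0.5 mg/kg females differed in 89 of 12370 genes (0.719%), with 45 higher and 44 lower at 5 mg/kg. That dose against the controls called 158 genes (1.28%), while 0.1 and 0.05 mg/kg against the controls called 0 genes each by edgeR, with 1025 and 706 genes at an unadjusted p under 0.05. The comparisons with 0 mg/kg share the 4 controls, and the comparison of 5 with 0.5 mg/kg uses the same 5 livers at 0.5 mg/kg. Ehhadh was 1530 ± 899 CPM (SD, n = 5) at 0.5 mg/kg and 8790 ± 4693 CPM (SD, n = 5) at 5 mg/kg, a log2 difference of 2.52 ± 0.48 (SE, adjusted p = 0.015 by edgeR). Cpt1b was higher by 3.50 ± 0.72 on the log2 scale (SE, adjusted p = 0.0283 by edgeR), although its values at 5 mg/kg ran from 4.43 to 157 CPM. For Cyp4a14 and Cyp4a10 the difference between the doses was 1.30 ± 0.72 and 1.51 ± 0.76 (SE), with adjusted p-values of 0.477 and 0.416 by edgeR. Gstm3 was lower at 0.5 than at 5 mg/kg, by a log2 difference of 1.06 ± 0.20 (SE, adjusted p = 0.0147 by edgeR), with 1362 ± 358 CPM (SD, n = 5) at 5 mg/kg. Hsd17b13 showed the same order, with 1.58 ± 0.37 (SE, adjusted p = 0.0463 by edgeR). Slc1a2 was lower at 5 mg/kg, with a log2 difference of -1.57 ± 0.33 (SE, adjusted p = 0.0256 by edgeR). The count of 89 was 31, 49 and 53 without 0.5 mg/kg replicate 3, 4 or 5, and 33, 22, 18 and 58 without 5 mg/kg replicate 1, 2, 3 or 5.

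The response to the same dose was next compared between durations and between sexes, as interaction terms in 1 fit of all 20 groups and 91 libraries with 13631 genes. CPM from this fit have their own normalisation and are not on the scale of the values above. In 9-month females 0.5 mg/kg called 4 genes (0.0293%), 1 higher and 3 lower. In 18-month males it called 84 genes (0.616%), 71 higher and 13 lower. Library totals also differed with duration. The 9-month females held 4705124 to 6669437 counts at 0.5 mg/kg and 5166394 to 6546745 in the controls. Each of the 9 livers at 18 months held at least 11083295 counts. Duration of dosing, age and whatever set the library totals apart cannot be told apart. With the low-total control kept, the interactions called 8 genes for duration and 52 for sex.

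Between 18 and 9 months, the response of females differed in 1 gene (0.00734%), Gabpb2, with a log2 difference of 2.34 ± 0.32 (SE, adjusted p = 3.47e-06 by edgeR). At 9 months the controls had 74 ± 11.1 CPM (SD, n = 5) and the 0.5 mg/kg group 34.5 ± 9.73 CPM (SD, n = 5). At 18 months the controls had 26.1 ± 3.93 CPM (SD, n = 4) and the 0.5 mg/kg group 61.6 ± 22.6 CPM (SD, n = 5), so the order of the groups was the opposite. For Cyp4a14 the log2 fold change was 3.42 ± 0.78 at 18 months and 1.43 ± 0.67 at 9 months (SE), a difference of 1.99 ± 0.97 with an unadjusted p of 0.0437 and an adjusted p of 0.756 by edgeR. Its 5 dosed livers ran from 41.1 to 73.7 CPM at 9 months and from 26.6 to 541 CPM at 18 months. The median log2 fold changes of the peroxisomal, mitochondrial, omega-oxidation and uptake lists at 9 months were 0.34, 0.31, 0.47 and 0.35.

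Between females and males at 18 months, the response differed in 2 genes (0.0147%), both smaller in females. Ehhadh went from 626 ± 173 CPM (SD, n = 4) to 1779 ± 1047 CPM (SD, n = 5) in females and from 403 ± 148 to 8180 ± 4571 CPM (SD, n = 5) in males. The log2 difference of the responses was -2.84 ± 0.55 (SE, adjusted p = 0.0125 by edgeR), and the lowest dosed male, 2425 CPM, was below the highest dosed female, 2973 CPM. This call was lost without female replicates 4 and 5 at 0.5 mg/kg, with a log2 difference of -2.37 and an adjusted p of 0.529, and in a fit of the 4 groups alone, with -2.85 and 1. It was also lost without female 0.5 mg/kg replicate 5 alone (0.0681) and without male 0.5 mg/kg replicate 4 (0.0855) or 5 (0.0697), all adjusted p by edgeR.

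Fam43a had 150 ± 47.3 CPM (SD, n = 4) in female controls and 175 ± 47.3 CPM (SD, n = 5) in dosed females, against 11.6 ± 4.62 and 111 ± 46.4 CPM (SD, n = 5) in control and dosed males. The log2 difference was -3.04 ± 0.45 (SE, adjusted p = 4.72e-05 by edgeR), and dosed males lay at 74.1 to 185 CPM where female controls lay at 107 to 204 CPM. This call was kept in every alternative run. Cyp4a14 had a log2 fold change of 4.67 ± 0.75 in males, and its difference between the sexes, -1.24 ± 0.95 (SE), had an adjusted p of 1 by edgeR. For Acot2 and Cpt1b, which rose in males by 3.86 and 3.40 on the log2 scale, the differences were -2.83 ± 0.67 and -2.60 ± 0.77 (SE), with adjusted p-values of 0.125 and 0.537 by edgeR. The median log2 fold changes of the peroxisomal, mitochondrial, omega-oxidation and uptake lists in males were 0.79, 0.86, 1.90 and 0.97.

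**Figure D5:**
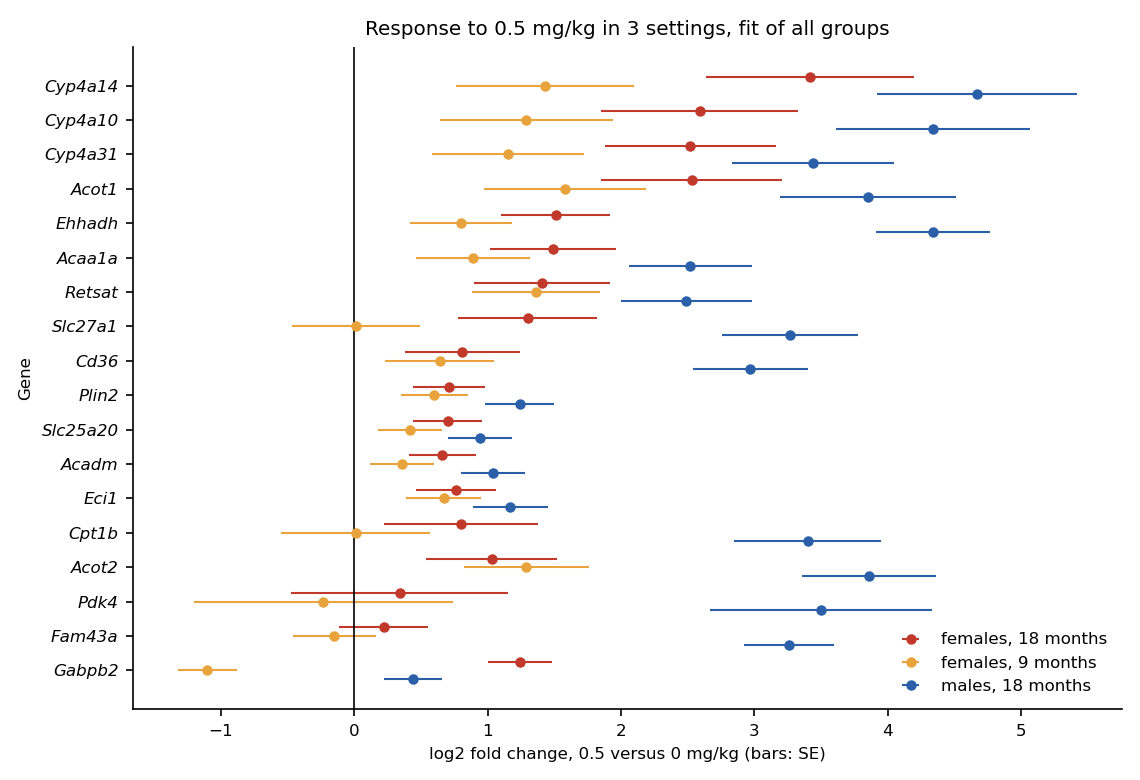
Log2 fold change at 0.5 against 0 mg/kg (x axis, points, with bars of 1 SE) for 18 genes (y axis) in 18-month females, 9-month females and 18-month males, all from the fit of all groups. Ehhadh and Fam43a differ between the sexes and Gabpb2 between the durations by the interaction test, while the other 15 genes shown passed neither test.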

How the data were processed

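Per the labels' protocols, scraped sections of fixed, paraffin-embedded liver were run through TempO-Seq. The authors deposited raw counts per probe, 1 column per animal. Per the submitters' processing notes, bcl2fastq 2.17.1.14 and Bowtie were used, and the Bowtie version, genome build and probe manifest were not given in the sources used here. Of 30146 probe rows, counts were summed to 21400 symbols. Groups were taken from the labels (sex, duration, dose). Control replicate 3 of the 18-month females was left out for its low total.

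Counts were filtered with filterByExpr, TMM-normalised and tested with edgeR 4.0.16 (robust quasi-likelihood F test, R 4.3.3) in a fit of the 5 dose groups of 18-month females (23 libraries), with Benjamini-Hochberg adjustment over all genes tested and calls at an adjusted p under 0.05. Interactions came from a fit of all 20 groups. Each SE was taken as the size of the log2 fold change over the root of its F value. Alternatives were DESeq2 1.42.0, RLE factors, no filter, unsummed probes, other sets of groups, stricter thresholds, the low-total control kept and each library left out. The test was tried on simulated data.

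The groups compared, the 37 gene lists and the rule for named genes were chosen with earlier results of these data known. Named genes were those called with a mean of at least 10 counts in 1 group (all of them where under 10 were called, otherwise the 15 largest each way, and 4 each way per interaction), the members with the smallest p, up to 3 per list, and a fixed set of receptor targets and markers such as Ppara, Cyp4a10 and Cyp7a1. Other genes are marked as chosen after their values were seen. Some genes of these rules are not reported here. The lists' 12 genes with no probe were left out. The labels mention no molecular identifiers. Promoters are from RefSeq, GRCm38.p6.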

Additional observations from a re-analysis of the deposited data

Results flagged for a closer look

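Of 166 sets of 4 controls or 5 dosed livers examined over the named genes, 26 held a sample far from the others by Dixon's test at the 95% level. Chance flags about 1 in 20 sets of genes chosen without regard to their values. Saa1, Lcn2, Igkc and Acot12 were chosen after their values were seen, so the count of 26 cannot be set against that rate. Of the 26, 6 fell on 0.5 mg/kg replicate 4 and 5 on replicate 5, 4 on control replicate 2, 3 each on control replicates 4 and 5 and dosed replicate 3, 2 on dosed replicate 1 and none on control replicate 1 or dosed replicate 2.

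High values in 0.5 mg/kg replicate 4 were those of Igkc at 2054 CPM, Krt19 at 49.8 CPM, Gpx2 at 19.5 CPM, Cd3g at 12.3 CPM and Gstm2 at 94.1 CPM, and Cpt1b stood low there at 0.341 CPM. In replicate 5, Saa1 reached 57289 CPM, Lcn2 9842 CPM, A2m 798 CPM and Mki67 3.47 CPM, all high, while Acot12 was low at 124 CPM. Dosed replicate 3 was high for Elovl3 at 145 CPM, Slc1a2 at 339 CPM and Mogat1 at 5.02 CPM. Dosed replicate 1 was high for Hsd3b2 at 27.4 CPM and low for Gabpb2 at 18.9 CPM.

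Among controls, replicate 4 was high for Saa1 at 35429 CPM and Sult1e1 at 1945 CPM and low for Ehhadh at 311 CPM. Control replicate 2 was high for Vnn1 at 4.86 CPM, Cyp2c55 at 22.2 CPM, Pdgfrb at 6.25 CPM and Mogat1 at 0.198 CPM. Control replicate 5 was high for Krt19 at 10.2 CPM, Gpx2 at 0.315 CPM and Gadd45a at 96.6 CPM.

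Gabpb2, Ehhadh and Fam43a had a response to 0.5 mg/kg that differed between groups by the edgeR interaction test. The log2 difference of Gabpb2 between 18 and 9 months in females was 2.34. Between females and males at 18 months it was -2.84 for Ehhadh and -3.04 for Fam43a.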

How the results depend on the processing

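The 0 calls at 0.5 mg/kg became 4 with DESeq2 and 23 with DESeq2 without 0.5 mg/kg replicate 5 (15 higher and 8 lower). These 8 included Saa1, Saa2, Orm1, Orm2 and Orm3. Control replicate 4, also high for Saa1, was kept in that run. Without both livers, Saa1 had a log2 fold change of -1.37 by edgeR and was not called. The calls were 3 with all groups in the fit. They were 0 to 1 with each library left out in turn (1 without control replicate 4 and 1 without dosed replicate 1, Gabpb2). The single call between durations became 15 with DESeq2, 8 with the low-total control kept, 2 without control replicate 4 and dosed replicate 5, and 1 to 4 with each library left out, with 4 without dosed replicate 1 and 2 without control replicate 4 or 9-month 0.5 mg/kg replicate 1 or 2. The 2 calls between sexes became 11 with DESeq2, 52 with the low-total control kept, 1 without dosed replicates 4 and 5, 1 at an adjusted p under 0.01, and 1 to 7 with each library left out, with 5, 6 and 7 without control replicate 4 and dosed replicates 1 and 3, 4 without male 0.5 mg/kg replicate 2, and 1 without female replicate 5 or male replicate 4 or 5 at 0.5 mg/kg. The 89 calls of 5 against 0.5 mg/kg became 331 with DESeq2, 306 with DESeq2 without replicate 5, 55 without replicates 4 and 5, 15 at an adjusted p under 0.01, and 18 to 109 with each library left out. The oxidation level stayed between 0.29 and 0.78. The causes of these changes were not tested.

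Of 1452 values of 81 named genes under the alternatives, 1402 kept direction and side of the threshold, 18 became calls and 32, in 10 genes, changed sign. Without dosed replicates 4 and 5, log2 fold changes were 0.40 for Cyp2b10, 0.06 for Gadd45a, -2.65 for Igkc, -0.53 for Krt19, -5.09 for Lcn2 and -4.96 for Saa1. DESeq2 without replicate 5 gave 0.18 for Cyp2b10, 0.032 for Gadd45a, -2.65 for Lcn2 and -4.58 for Saa1. Without control replicate 4 and dosed replicate 5, Lcn2 had -1.94 and Saa1 -1.37. With the low-total control kept, Cyp2b10 had 0.041 and Igkc -0.74. With each library left out, the values ran from -0.10 to 0.96 for Pdk4, -0.73 to 0.21 for Cyp2b10, -1.23 to 0.20 for Cyp3a11, -0.19 to 0.31 for Cyp1a2, -0.32 to 0.045 for Gadd45a, -1.41 to 0.39 for Mki67, -4.59 to 3.53 for Saa1, -2.68 to 1.82 for Lcn2 and -2.09 to 0.72 for Igkc. No paired analysis was possible because the replicate numbers were given in accession order and pair no animals. Genes with few counts, such as Mogat1, Gpx2 and Krt19, rest on too few reads for a precise fold change.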
